A study of Arabidopsis thaliana with 21 samples.

Results

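The Aux/IAA and ARF genes of Arabidopsis thaliana were examined for peaks of the histone variant H2A.Z and of acetylated histone H4 (H4Ac) in ChIP-seq peak lists. The 44 genes were taken by locus from a fixed list of 29 Aux/IAA genes and 15 ARF genes, by a rule that used no measured value. The list was chosen with earlier results of these data known. The genes were set against all 27444 protein-coding genes of the nuclear chromosomes. H2A.Z was profiled in mbd9-1 and in WT (Col-0), 3 libraries each, and H4Ac in 3 WT libraries, from seedlings at 6 days of age with the roots removed. Both genotypes were of the Col-0 ecotype, and were grown on plates under long days and were fixed with formaldehyde. The mbd9-1 line carries 1 T-DNA insertion allele of MBD9, a methyl-CpG-binding domain protein, and its WT control carries no insertion. Each sample held the pooled shoots of many seedlings, so cell types cannot be told apart. The libraries of arp6-1, of mbd9-1 H4Ac and of input were not analysed here. The comparison of mbd9-1 with WT addresses where H2A.Z depends on MBD9, and the H4Ac lists show which of the same genes carry this other mark in WT.

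Aux/IAA proteins are short-lived repressors that bind ARF transcription factors and recruit co-repressors of the TOPLESS family. Auxin binds the TIR1/AFB F-box receptors together with the degron of an Aux/IAA protein, which is then ubiquitinated and degraded, so that the bound ARF is released. ARF proteins bind auxin response elements in DNA, and many Aux/IAA genes are themselves induced by auxin through such elements. SWR1 is the complex that places H2A.Z into nucleosomes, and in plants H2A.Z occupies the first nucleosomes of active genes as well as the bodies of inducible genes.

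A gene was given a peak when at least 1 bp of its body or of the 500 bp upstream lay under a peak of the list. A gene was called marked when this held in at least 2 of the 3 libraries of a group. The lists held 5215 to 5733 peaks in mbd9-1 H2A.Z, 6263 to 9260 in WT H2A.Z and 10439 to 12030 in WT H4Ac. They hold positions with no height, so the read depth behind a peak is unknown, a missing peak does not show that a mark is absent, and no gene level can be given. mbd9-1 list 3 stood apart, with a median peak width of 381 bp against 620 and 652 bp in the other mbd9-1 lists and 587 to 668 bp in the WT H2A.Z lists. The lists give no readout of MBD9 itself, so the genotype label was not checked.

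H4Ac marked a larger share of the ARF genes than of the Aux/IAA genes. In WT, 10 of 29 Aux/IAA genes and 12 of 15 ARF genes were marked by H4Ac, which is 34.5% of the Aux/IAA genes and 80% of the ARF genes beside 46.3% of all genes. By library, the Aux/IAA share was 37.9%, 34.5% and 34.5%, and the ARF share was 80%, 73.3% and 80%. The difference in share, Aux/IAA minus ARF, was -42.1 ± 3.33 percentage points (SD, n = 3 libraries) and ran from -45.5 to -38.9 points, so the families were far apart in every library. In the same libraries 45.6% ± 3.23 of all genes had a peak (SD, n = 3). ARF genes are longer, and the median length was 1740 bp for Aux/IAA genes, 4530 bp for ARF genes and 2078 bp for all genes. In a window of equal length for every gene, 500 bp upstream to 1000 bp downstream of the start, the counts were again 10 Aux/IAA and 12 ARF genes, and the share of all genes was 44.8%.

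**Figure D1:**
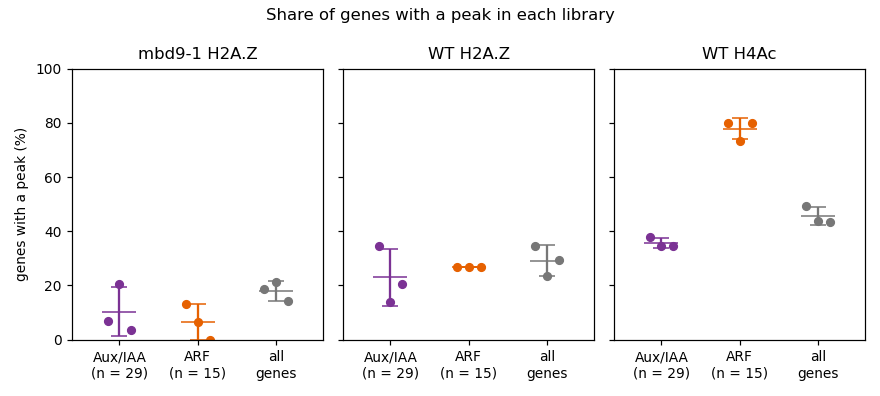
Percent of Aux/IAA genes, ARF genes and all protein-coding genes with a peak (vertical axis) in each library (points) of the mbd9-1 H2A.Z, WT H2A.Z and WT H4Ac groups, with mean and SD (n = 3 libraries). For WT H4Ac the Aux/IAA points lie at 34.5% to 37.9% and the ARF points at 73.3% to 80%, while for WT H2A.Z the Aux/IAA points run from 13.8% to 34.5% and the ARF points all lie at 26.7%.

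WT H2A.Z showed no such difference between the families. It marked 8 of 29 Aux/IAA genes (27.6%) and 4 of 15 ARF genes (26.7%), both close to the 28.8% of all genes. Every WT list held 4 ARF genes, whereas the Aux/IAA genes numbered 10, 4 and 6 in the 3 WT lists. The mean difference in share, Aux/IAA minus ARF, was -3.68 ± 10.5 percentage points (SD, n = 3), smaller than its spread. In the window of equal length 7 Aux/IAA genes and 3 ARF genes were marked, beside 26.0% of all genes. The genes lost there were IAA26, whose peaks lie far into the gene, and ARF19, whose peaks only touch its far end.

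Most marked members carried a single mark, as did most marked genes among all protein-coding genes. Among the Aux/IAA genes, 2 were marked by both H2A.Z and H4Ac, 6 by H2A.Z alone, 8 by H4Ac alone and 13 by neither. Among the ARF genes, 3 were marked by both, 1 by H2A.Z alone, 9 by H4Ac alone and 2 by neither. Among all genes 11.0% carried both, 17.8% H2A.Z alone, 35.3% H4Ac alone and 35.9% neither. No test was run over the genes of a family, and the classes are counts to be read beside those shares. Leaving out WT H2A.Z library 1 brought the Aux/IAA genes with H2A.Z alone to 1, and leaving out library 3 brought them to 2, since both remaining lists then had to hold a peak and most of these genes had one in only 2 WT lists. Leaving out library 1 or 2 also left 1 Aux/IAA gene with both marks.

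**Figure D2:**
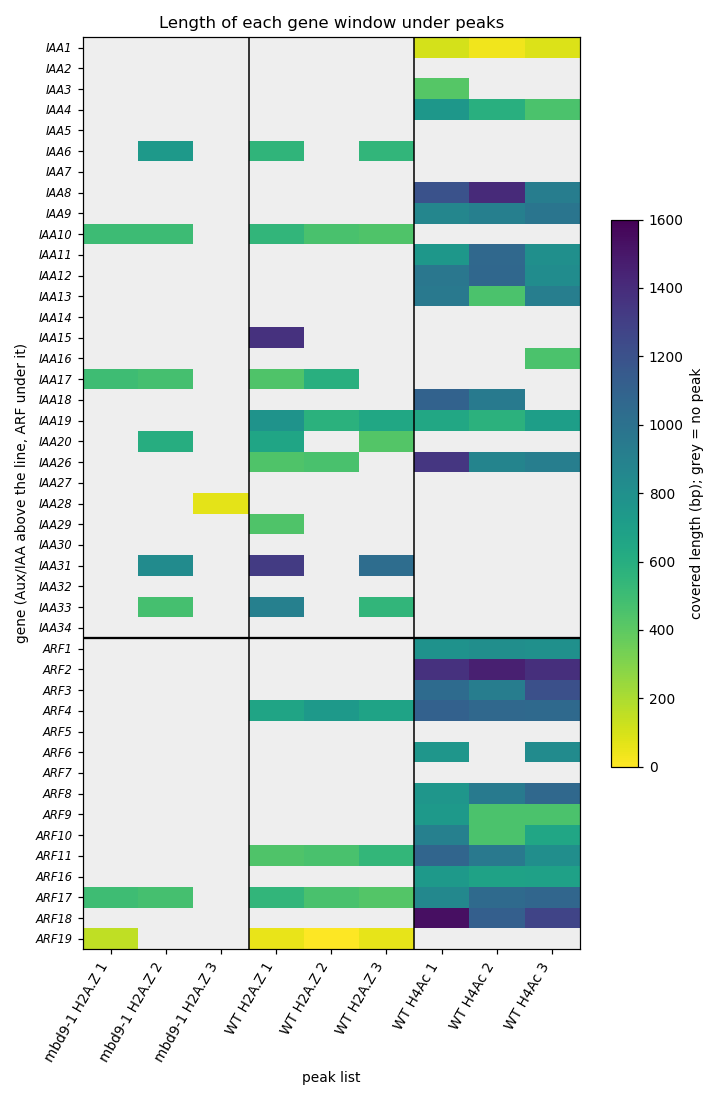
Length in bp of each gene window (gene body and 500 bp upstream) that lay under peaks, for the 44 genes (rows) in the 9 lists (columns), where grey means no peak. ARF rows are filled mainly in the WT H4Ac columns, and only IAA19, ARF4 and ARF11 have no value in mbd9-1 H2A.Z and a value in all 6 WT columns.

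The degron, the part of an Aux/IAA protein that binds the receptor, was used to divide the Aux/IAA family. The 6 Aux/IAA genes whose proteins lack a canonical degron (IAA20, IAA30, IAA31, IAA32, IAA33 and IAA34) held no H4Ac-marked gene, and 3 of them were marked by H2A.Z. Those 3 (IAA20, IAA31 and IAA33) had no H2A.Z peak in WT list 2. Of the 23 genes that encode a degron, 10 were marked by H4Ac (43.5%) and 5 by H2A.Z (21.7%). Among all genes 46.3% were marked by H4Ac and 28.8% by H2A.Z in WT. The genes without a degron were short, with a median length of 1268 bp against 1907 bp for those with one. Among the ARF genes, the 7 repressive class B genes (ARF1, ARF2, ARF3, ARF4, ARF9, ARF11 and ARF18) and the 3 class C genes (ARF10, ARF16 and ARF17) were all marked by H4Ac. Of the 5 activators, ARF6 and ARF8 were marked by H4Ac, whereas ARF5, ARF7 and ARF19 were not. The activators thus stood at 40%, near the 34.5% of the Aux/IAA genes, and the higher ARF share lay in classes B and C. These divisions follow general knowledge of the proteins and were not tested.

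Fewer members had an H2A.Z peak in mbd9-1 than in WT, on average, in both families. Aux/IAA genes with a peak numbered 2, 6 and 1 in the mbd9-1 lists, against 10, 4 and 6 in the WT lists, a mean difference of -3.67 genes, and the ranges overlapped. ARF genes with a peak numbered 2, 1 and 0 in the mbd9-1 lists, against 4, 4 and 4 in the WT lists, a mean difference of -3 genes, and the ranges did not overlap. Among all genes the share with a peak was 18.02% ± 3.67 in mbd9-1 and 29.13% ± 5.61 in WT (SD, n = 3 each), and these ranges did not overlap either. The mbd9-1 lists were shorter than the WT lists, and with lists of equal length the differences were -2.33 Aux/IAA genes and -2 ARF genes. Lists of equal length kept the widest peaks of each list, up to the number in the shortest list of that antibody. Without WT list 1, the longest, the Aux/IAA difference was -2 genes.

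In 3 genes the mbd9-1 libraries all lay below the WT libraries in length under H2A.Z peaks. They were IAA19, ARF4 and ARF11, which is 1 of 29 Aux/IAA genes (3.45%) and 2 of 15 ARF genes (13.3%), beside 8.83% of all genes. No member had all mbd9-1 libraries above all WT libraries, a pattern found in 1.10% of all genes. With 3 libraries against 3, an exact permutation test cannot give a p below 0.1, so no single gene could pass 0.05. The ARF count was 3 in the window of equal length, when ARF17 joined, and 3 without mbd9-1 library 1, when ARF19 joined. The Aux/IAA count was 3 without WT library 2, when IAA31 and IAA33 joined, and 2 without WT library 3, when IAA26 joined.

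IAA19 (AT3G15540, chromosome 3, 5264001 to 5265695, plus strand), known as MSG2 from its role in tropic growth of the hypocotyl, had 0, 0 and 0 bp under H2A.Z peaks in mbd9-1, against 780, 576 and 644 bp in WT. The mean difference was -667 bp (two-sided exact permutation p = 0.1, n = 3 each). Its WT H2A.Z region, defined as the bases under peaks of at least 2 WT lists, was chr3:5263951-5264591 and ran from 50 bp upstream to 590 bp into the gene. H4Ac peaks covered 641, 569 and 701 bp of the same gene, and 96.7% of the H2A.Z region lay inside the H4Ac region.

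ARF4 (AT5G60450, chromosome 5, 24308255 to 24312784, minus strand), which acts with ARF3 in leaf polarity, had 0, 0 and 0 bp under H2A.Z peaks in mbd9-1, against 668, 739 and 673 bp in WT, a difference of -693 bp (two-sided exact permutation p = 0.1, n = 3 each). The region, chr5:24311980-24312655, was centred 466 bp into the gene in the 5′ untranslated part. ARF11 (AT2G46530, chromosome 2, 19104632 to 19108486, plus strand), another class B repressor, had 0, 0 and 0 bp in mbd9-1, against 439, 461 and 540 bp in WT, a difference of -480 bp (two-sided exact permutation p = 0.1, n = 3 each). Its region, chr2:19104959-19105423, was centred 559 bp into the gene in coding exon sequence. In both genes the mbd9-1 and WT values did not overlap, and 100% of the H2A.Z region lay inside the H4Ac region. The call at ARF11 was lost with lists of equal length (-334 bp, exact permutation p = 0.4). It was also lost without peaks of the most common width of each list (-180 bp, exact permutation p = 1), since its WT peaks of 439 and 461 bp had that width. The difference at ARF4 was -693 bp under both. H4Ac covered 1103, 1059 and 1050 bp of ARF4 and 1076, 952 and 807 bp of ARF11.

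The other members with the longest WT coverage overlapped between the genotypes. IAA31 (AT3G17600) had 0, 827 and 0 bp in mbd9-1, against 1320, 0 and 1031 bp in WT, a difference of -508 bp (two-sided exact permutation p = 0.4, n = 3 each). IAA33 (AT5G57420) had 0, 471 and 0 bp in mbd9-1, against 904, 0 and 547 bp in WT, a difference of -327 bp (two-sided exact permutation p = 0.4, n = 3 each). For both genes the WT library without a peak was the second, and the mbd9-1 library with a peak was also the second. Without WT library 1 the differences were -240 bp for IAA31 and -116.5 bp for IAA33, and without WT library 2 they were -900 bp and -568.5 bp in the same gene order. Without mbd9-1 library 2 the IAA31 difference was -784 bp. ARF17 (AT1G77850) had 495, 471 and 0 bp in mbd9-1, against 548, 461 and 428 bp in WT, a difference of -157 bp (two-sided exact permutation p = 0.6, n = 3 each), and this difference turned to 4 bp without mbd9-1 library 3. In the window of equal length the ARF17 difference was -435 bp (exact permutation p = 0.1) and the genotypes did not overlap.

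The same pattern of libraries as in IAA31 and IAA33 was seen in IAA6 and IAA20. These genes were picked out after their values were seen. IAA6 (AT1G52830) had 0, 738 and 0 bp in mbd9-1, against 550, 0 and 545 bp in WT. IAA20 (AT2G46990) had 0, 604 and 0 bp in mbd9-1, against 662, 0 and 428 bp in WT. A peak in exactly WT lists 1 and 3 and mbd9-1 list 2 was thus found in 4 of 29 Aux/IAA genes and in 0 of 15 ARF genes, and in 0.947% of all genes. WT list 2 was the shortest of the WT H2A.Z lists, and mbd9-1 list 2 was the longest of the mbd9-1 lists. The part of list length in this pattern was not tested for these genes.

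**Figure D3:**
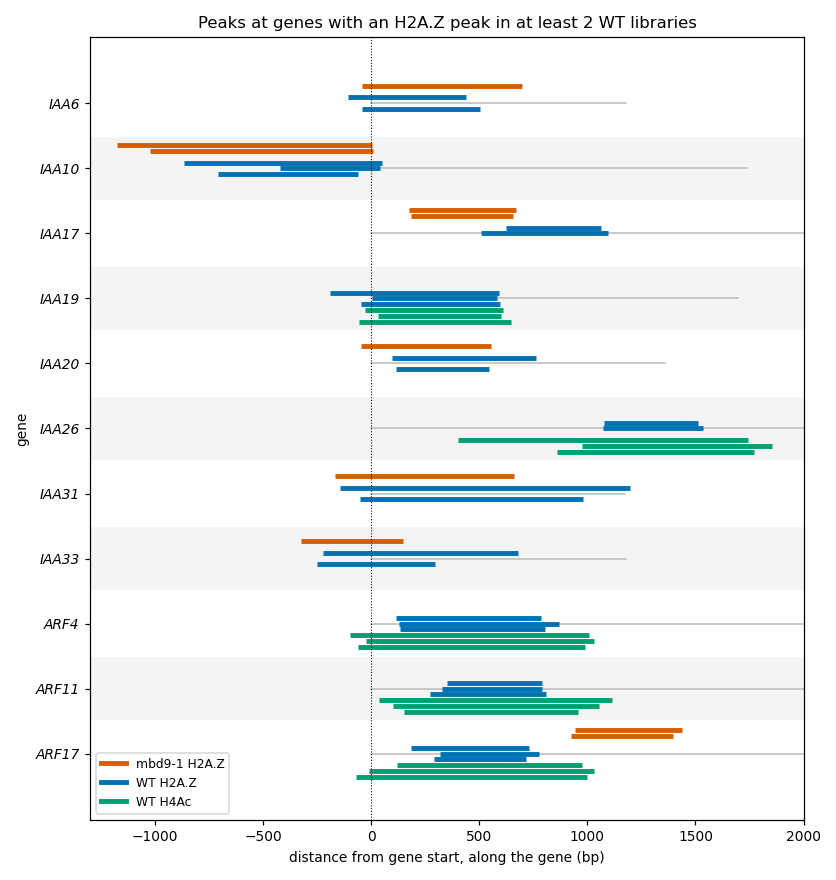
Extent of each peak in bp from the gene start (horizontal axis) at 11 of the 12 genes with an H2A.Z peak in at least 2 WT libraries, with 1 bar per peak for mbd9-1 H2A.Z, WT H2A.Z and WT H4Ac and a grey line for the gene. ARF19 is left out because its peaks lie past its far end. The bars of mbd9-1 H2A.Z at ARF17 do not reach those of WT H2A.Z but overlap the ends of those of WT H4Ac. The bars of mbd9-1 H2A.Z at IAA17 overlap the WT H2A.Z bars in part.

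Of the 12 members marked by H2A.Z in WT, 3 were also marked in mbd9-1, and they were IAA10, IAA17 and ARF17. This is 25% of these members, beside 38.1% of all genes marked in WT. As a share of each family it is 6.90% of the Aux/IAA genes and 6.67% of the ARF genes, beside 16.0% of all genes. In 2 of these 3 genes the mbd9-1 peaks were centred elsewhere in the gene than the WT peaks. ARF17 (chromosome 1, 29272074 to 29275507, plus strand), a class C ARF, had mbd9-1 peaks centred 1190 and 1160 bp from its start, whereas its WT peaks were centred at 456, 547 and 504 bp. The mbd9-1 region chr1:29273017-29273469 and the WT region chr1:29272364-29272803 shared 0 bp. Among genes with a region in both genotypes, 10.7% shared no base.

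IAA17 (AT1G04250, chromosome 1, 1136078 to 1138663, plus strand), known as AXR3 from auxin-resistant gain-of-function mutants, had 495, 471 and 0 bp in mbd9-1, against 439, 590 and 0 bp in WT. Its mbd9-1 peaks were centred 422 and 418 bp from the start in coding exon sequence, and its WT peaks 845 and 802 bp from the start in an intron. The mbd9-1 region chr1:1136261-1136731 and the WT region chr1:1136704-1137142 shared 28 bp. Single peaks overlapped further, since the WT list 2 peak began at 1136585, inside both mbd9-1 peaks. The mbd9-1 peaks of IAA17 and ARF17 were 495 and 471 bp wide, which are the most common peak widths of those lists. The same held for the WT peaks of ARF17 in lists 2 and 3 (461 and 428 bp) and of IAA17 in list 1 (439 bp). The other WT peaks were wider, at 548 bp for ARF17 in list 1 and 590 bp for IAA17 in list 2. The part of peak width in the position of these peaks was not tested.

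IAA10 (AT1G04100, chromosome 1, 1059470 to 1061209, plus strand) had 505, 506 and 0 bp in mbd9-1, against 548, 461 and 440 bp in WT. All of these peaks were centred inside the upstream neighbour AT1G04090, and the WT region chr1:1058761-1059510 reached only 40 bp into IAA10. At ARF19 (AT1G19220) the H2A.Z peaks, with 152, 0 and 0 bp in mbd9-1 and 51, 2 and 59 bp in WT, were centred past its far end in the neighbour AT1G19210. ARF19, which acts with ARF7 in lateral root formation, thus counted as marked through peaks of a neighbouring gene, as did IAA1 (AT4G14560), where H4Ac peaks centred in AT4G14570 covered 105, 32 and 83 bp. With a minimum of 150 bp covered, no ARF gene was marked by H2A.Z alone.

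Read at the WT region itself, 2 of 12 members had at least 50% of the region under peaks in at least 2 mbd9-1 libraries, beside 22.2% of all genes with such a region. They were IAA10, with 95.2%, 95.3% and 21.5% of the region covered in mbd9-1, and ARF19, with 88.3%, 62.4% and 0%. Their regions lie mainly in the neighbouring genes. In 6 of the 12, which were IAA17, IAA19, IAA26, ARF4, ARF11 and ARF17, no mbd9-1 library reached 50%, beside 56.9% of all such genes. In the other 4, IAA6, IAA20, IAA31 and IAA33, mbd9-1 library 2 alone passed it, with 100%, 100%, 69.1% and 71.3% of the region covered. Among all genes with such a region, exactly 1 mbd9-1 library reached 50% in 1608 of 7685. The shares for at least 2 libraries and for no library were near those of all genes. This reading was added after the peak positions were seen.

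In WT the 12 marked genes differed in where the H2A.Z region lay. At IAA6, IAA19, IAA31 and IAA33 it spanned the gene start, beginning 41, 50, 52 and 225 bp upstream. At IAA20, ARF4, ARF11 and ARF17 it began 116, 129, 327 and 290 bp past the start. At IAA26 (AT3G16500) it was centred 1294 bp into the gene, with 0, 0 and 0 bp under peaks in mbd9-1, against 439, 461 and 0 bp in WT. H4Ac at IAA26 covered 1344, 876 and 915 bp around the same place, centred 1315 bp from the start. IAA15 (AT1G80390) and IAA29 (AT4G32280) had an H2A.Z peak in WT list 1 only, of 1372 and 439 bp, and IAA28 (AT5G25890) had 68 bp in mbd9-1 list 3 only.

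Along the gene, H4Ac peaks of both families lay past the start. The share of Aux/IAA genes under an H4Ac peak was highest 600 bp past the start, at 28.7% ± 1.99 (SD, n = 3), and that of ARF genes 400 to 500 bp past it, at 75.6% ± 7.70. The same maximum for all genes was 37.8% ± 3.08 at 450 bp. The shares changed little around these places, and a difference in place between the families was not tested. For WT H2A.Z the Aux/IAA maximum was 13.8% ± 9.12, reached at 150, 200, 250 and 400 bp, the ARF maximum was 20% ± 0 from 400 to 700 bp and that of all genes was 17.9% ± 4.27 at 400 bp. In mbd9-1 H2A.Z the maxima were 6.90% ± 9.12 for Aux/IAA, 4.44% ± 3.85 for ARF and 9.37% ± 4.10 for all genes. The Aux/IAA values in mbd9-1 spread over more than their mean, so no place along the gene is given for them.

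**Figure D4:**
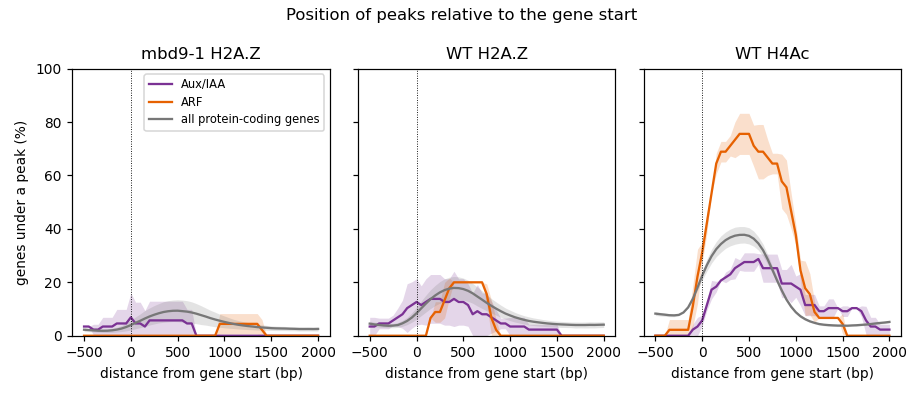
Percent of genes under a peak (vertical axis) by distance from the gene start in bp, for Aux/IAA, ARF and all protein-coding genes in the 3 groups, where lines are means of 3 libraries and bands their SD. For WT H4Ac the Aux/IAA line reaches 28.7% at 600 bp and the ARF line 75.6% from 400 to 500 bp.

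The 9 ARF genes with H4Ac alone differed in the length under H4Ac peaks, whose median width was 788 to 819 bp in the 3 lists. ARF2 (AT5G62000), which limits organ growth, had 1369, 1461 and 1387 bp under H4Ac peaks. ARF18 (AT3G61830) had 1534, 1114 and 1273 bp and no H2A.Z peak, although its closest relative by coding sequence, ARF11 (76.4% identical), carried both marks. ARF3 (AT2G33860), the ETTIN gene of gynoecium patterning, had 1043, 919 and 1210 bp, of which a part came from a peak region centred past its far end. ARF1 (AT1G59750) had 786, 811 and 798 bp and ARF8 (AT5G37020), which acts with ARF6 in flower maturation, had 761, 940 and 1058 bp. ARF6 (AT1G30330) had 757, 0 and 829 bp with the peak missing from library 2. ARF9, ARF10 and ARF16 had 454 to 901 bp.

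Of the 8 Aux/IAA genes with H4Ac alone, 7 had peaks centred in their own gene. IAA8 (AT2G22670) had 1199, 1412 and 920 bp, and its closest relative IAA9 (AT5G65670) had 867, 912 and 980 bp. IAA12 (AT1G04550), the BODENLOS repressor of embryonic root formation, had 967, 1067 and 820 bp, and its closest relative IAA13 (AT2G33310) had 955, 454 and 917 bp. In both pairs the members shared the class. IAA11 had 753, 1058 and 803 bp, IAA4 had 756, 591 and 456 bp and IAA18 (AT1G51950) had 1097, 943 and 0 bp. IAA3 and IAA16 each had an H4Ac peak in a single list and were called unmarked.

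In 10 members no list held a peak. They were IAA2, IAA5, IAA7, IAA14, IAA27, IAA30, IAA32, IAA34, ARF5 and ARF7, which is 22.7% of the members, against 19.3% of all genes. ARF5, or MONOPTEROS, activates genes in embryo and vein patterning, and ARF7, or NPH4, acts in phototropism and lateral root formation. IAA7 (AXR2) and IAA14 (SOLITARY-ROOT) are closest relatives by coding sequence (77.7% identical), as are IAA32 and IAA34 (68.8% identical). No peak was shared between any of the 44 genes, and the nearest neighbours in the genome, IAA3 and IAA17, lie 6388 bp apart with 1 gene between them.

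Among closest relatives by coding sequence, 13 pairs chose each other, and 8 of them shared their class of marks (6 of 9 Aux/IAA pairs and 2 of 4 ARF pairs). The pairs that differed were IAA6 and IAA19, IAA18 and IAA26, IAA20 and IAA30, ARF7 and ARF19, and ARF11 and ARF18. The class of ARF19 rests on H2A.Z peaks centred in a neighbouring gene. That of IAA1, which shared its class with IAA4, rests on H4Ac peaks centred in a neighbouring gene. The count of shared classes was not set beside pairs from all genes. It also depends on the measure, since identity was taken over the longer coding sequence and genes of unlike coding length scored low. IAA1 and IAA4 (507 and 561 bp of coding sequence) paired in this way, as did IAA2 and IAA3 (786 and 870 bp). Both pairs are among the 8 that shared their class, and no other measure of relatedness was tried. IAA20 and IAA30 were the most alike of all pairs, at 82.6% identity, and IAA30 had no peak in any list.

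The auxin response element TGTCTC and the variant TGTCGG were searched on both strands from 250 bp upstream to 50 bp downstream of each gene start. TGTCTC was found at 12 of 29 Aux/IAA genes (41.4%) and 1 of 15 ARF genes (6.67%), beside 14.2% of all genes. TGTCGG was found at 6 Aux/IAA genes (20.7%) and 2 ARF genes (13.3%), beside 5.12% of all genes. The motifs share their first 4 letters and cannot occupy the same place on a strand. In all, 16 Aux/IAA genes (55.2%) and 3 ARF genes (20%) had at least 1 of them, beside 18.7% of all genes. Shown here, because they set relatives with different marks side by side, are 30 bases of IAA6, IAA19, IAA20 and IAA30 in the direction of the gene, with TGTCTC in capitals (TAIR10.1).
IAA6 (minus strand, 179 bp upstream, chr1:19673814-19673843): ggacccaacataTGTCTCtcatgtgaccga
IAA19 (plus strand, 184 bp upstream, chr3:5263805-5263834): gcaccaaacttaTGTCTCtcatgtgaccga
IAA20 (plus strand, 69 bp upstream, chr2:19307633-19307662): tttagcggacgcTGTCTCatcattccaccg
IAA30 (plus strand, 56 bp upstream, chr3:22995618-22995647): ctttaacaacacTGTCTCatcattccacca
Of the 12 bases after the motif, 12 are the same in IAA6 and IAA19 and 11 in IAA20 and IAA30. IAA6 and IAA19 were both marked by H2A.Z in WT, and only IAA19 by H4Ac. A link between these bases and the marks was not tested. Of the 12 bases before it, 9 are the same in IAA6 and IAA19 and 5 in IAA20 and IAA30.

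Few of these elements lay under a region of either mark. IAA19 had 2 more copies of TGTCTC, 145 and 128 bp upstream, and all 3 stand outside its H2A.Z region, which begins 50 bp upstream, although the longer peak of WT list 1 reached over them. The copy at IAA6 is likewise upstream of its region, which begins 41 bp before the start. The exceptions were IAA31 for H2A.Z and IAA13 for H4Ac, whose elements are shown for that reason with the motif in capitals, in the direction of the gene (TAIR10.1).
IAA31 (minus strand, 33 bp past the start, chr3:6021097-6021126, TGTCTC on the opposite strand): aatagagagagaGAGACAtgaagagcactc
IAA13 (minus strand, 100 bp upstream, chr2:14116172-14116201): caagtttgataaTGTCGGgaagaaaagtta
A match is a match of letters and was not tested as a binding site.

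A chosen list of 34 other auxin pathway genes gave 14 genes marked by WT H2A.Z (41.2%, beside 28.8% of all genes) and 13 marked by H4Ac (38.2%, beside 46.3% of all genes). It was chosen with results of these data known. The synthesis genes TAA1 and YUC had H2A.Z at 5 of 7 and H4Ac at 0 of 7. The GH3 genes of auxin conjugation had H2A.Z at 4 of 7 and H4Ac at 1 of 7. The transport genes PIN and AUX/LAX had H2A.Z at 4 of 9 and H4Ac at 3 of 9. The TIR1/AFB receptors had H2A.Z at 0 of 6 and H4Ac at 4 of 6. The 5 TPL/TPR co-repressors all had H4Ac, and 1 of them had H2A.Z. In mbd9-1, 6 of the 34 were marked by H2A.Z (17.6%, beside 16.0% of all genes). In 5 of the 34 (GH3.2, PIN2, YUC1, YUC6 and YUC9) all mbd9-1 libraries lay below all WT libraries, beside 8.83% of all genes, and in 0 above, beside 1.10%. GH3.2 had 0, 0 and 0 bp in mbd9-1, against 1178, 461 and 592 bp in WT, and YUC9 had 622, 0 and 0 bp in mbd9-1, against 916, 978 and 663 bp in WT. PIN2, an auxin efflux carrier, had 495, 471 and 0 bp in mbd9-1, against 1242, 1168 and 659 bp in WT.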

How the data were processed

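H2A.Z and H4Ac ChIP-seq reads were mapped by the authors to TAIR10 with Bowtie2, filtered with Samtools, and peaks were called per library against input with HOMER, versions not given in the sources used here for Bowtie2 and HOMER. The deposited lists hold the start and end of each peak in bp, with no height, ratio or p-value, and replicates were not pooled. Gene models were RefSeq TAIR10.1, whose nuclear coordinates were taken to be those of TAIR10, which was not checked against a TAIR10 copy (0 peaks lay past a chromosome end). All 44 loci carried the listed symbols.

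Covered length per gene window (body and 500 bp upstream) was computed with Python 3.11.15, NumPy and pandas, checked with bedtools and tested on simulated data. A mark needs at least 2 of 3 libraries. Values of mbd9-1 and WT were compared by the exact two-sided permutation test, and a call needs all mbd9-1 libraries below or above all WT libraries. Named genes were those with such calls, the 3 per family with the longest mean WT H2A.Z coverage, and members with a peak in all 9 lists (0); others were chosen after their values were seen. The members and lists were chosen with earlier results of these data known. Shared regions in mbd9-1 were an added reading. The longest coding sequence of each gene was aligned globally to find closest relatives, with identity taken over the longer sequence of a pair. Alternatives were other windows, lists of equal length, no peaks of the most common width, stricter calls, a replicate block and leaving out each library. Replicates were separate biological samples according to the study. No protein sequence was used, and degron groups follow general knowledge.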

Additional observations from a re-analysis of the deposited data

How the results depend on the processing

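The difference between the families in H4Ac kept its direction under all alternatives tried, and was -45.6 percentage points, Aux/IAA minus ARF, when 150 bp had to be covered or the peak centre had to lie in the window. The count of ARF genes with all mbd9-1 libraries below all WT libraries was 1 with lists of equal length, 1 without peaks of the most common width, 3 in the window of equal length and 2 to 3 over the left-out libraries, and the Aux/IAA count ran from 1 to 3 over the left-out libraries. ARF genes with H2A.Z alone numbered 0 with 150 bp covered, 0 by peak centre and 0 in the window of equal length. Aux/IAA genes with H2A.Z alone numbered 3 with lists of equal length, 1 when a peak was needed in all 3 libraries, and 1 to 6 over the left-out libraries. Aux/IAA genes with both marks numbered 1 with lists of equal length, with a peak in all 3 libraries, in the window of equal length and without peaks of the most common width, and 1 to 2 over the left-out libraries, and ARF genes with both marks numbered 1 without peaks of the most common width. The fall in the mean number of ARF genes with an H2A.Z peak, mbd9-1 minus WT, was -2 with 150 bp covered and -2 with lists of equal length, against -3. The covered length of ARF17, mbd9-1 minus WT, turned to 168 bp with lists of equal length (exact permutation p = 0.4) and ran from -243.5 to 4 bp over the left-out libraries, with 4 bp without mbd9-1 library 3. It was -435 bp in the window of equal length, the 1 alternative in which ARF17 did not overlap between the genotypes (exact permutation p = 0.1). Lists of equal length keep the widest peaks, so narrower peaks drop out of the longer lists. Beyond that, the cause of these changes was not tested. Same-numbered mbd9-1 and WT H2A.Z libraries did not deviate together from their group means across 14153 genes (r = 0.00308, -0.116 and 0.0147). Same-numbered WT H2A.Z and WT H4Ac libraries gave r = -0.00791, 0.00915 and 0.0243, although the study split each chromatin sample between the 2 antibodies. The measure thus cannot tell whether same-numbered libraries share a batch. With the replicate block the differences of IAA19, ARF4 and ARF11 stayed at -667, -693 and -480 bp, each with the smallest p that 3 pairs allow in an exact paired permutation test, 0.25. The lists limit every count, since a peak is either listed or not.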
